A study of Mus musculus with 2 samples.

Results

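Transcripts of 8 X-linked genes, the homeobox genes Rhox5, Rhox6, Rhox9, Rhox10 and Rhox13 and the Xlr4 copies Xlr4a, Xlr4b and Xlr4c, were followed in single cells of the E15.5 mouse ovary. They were picked by symbol from 27998 measured genes, and all 8 were found in both libraries. The choice was made with earlier results of the same libraries in view, in particular the germ cell KO over WT ratios of Rhox13 and the Xlr4 copies and the stage profile of the other Rhox genes, so those ratios and profiles are descriptions and no test is attached to them. The KO library came from 2 pooled embryos homozygous for loss of exon 3 of Nr3c1, which encodes the glucocorticoid receptor (GR). The null allele came from a cross of floxed mice to a constitutive β-actin Cre line, so the loss is not restricted to germ cells. The WT library came from 4 pooled embryos that were wild type for GR. Both groups carried the Tg(Pou5f1-EGFP)2Mnn transgene on the Nr3c1tm1.1Jda stock, all embryos were female, and GFP-positive germ cells were sorted and then mixed with GFP-negative ovarian cells at 60 to 40. With 1 library per genotype there was no replicate, no p-value is given, and genotype cannot be told apart from embryo pool, cell sort and droplet capture. All intervals are exact 95% intervals that cover counting error only.

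The Rhox genes are a cluster of reproductive homeobox genes on the X chromosome that encode DNA-binding proteins and are known mainly from the gonads and the placenta. Rhox5, the founding member, is best known as an androgen-responsive gene of Sertoli cells, Rhox6 and Rhox9 are a pair of related genes active in fetal germ cells, Rhox10 is known from spermatogonia, and Rhox13 is a germ cell member. The Xlr genes form another X-linked family, related in sequence to the synaptonemal complex gene Sycp3, and Xlr4b and Xlr4c are known as imprinted genes in the brain. Female germ cells of the fetal ovary leave the mitotic cycle, switch on Stra8 and pass through meiotic prophase.

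In the GRCm38 assembly the Rhox members lie between Rhox5 (chrX:37804842-37808876, plus strand) and Rhox13 (chrX:38121219-38129967, plus strand), with Rhox6 (chrX:37826910-37829857, plus), Rhox9 (chrX:37899097-37901770, minus) and Rhox10 (chrX:38066475-38071691, plus) in between. The Xlr4 copies lie farther along the chromosome, at chrX:73074345-73082478 (Xlr4a, minus), chrX:73214333-73222453 (Xlr4b, plus) and chrX:73233688-73243130 (Xlr4c, minus). The 220 bases upstream of the Xlr4 copies are shown because they give how alike the copies are, and each capital marks a base that differs from both other copies. They span chrX:73082538-73082757 (Xlr4a, minus strand), chrX:73214090-73214309 (Xlr4b, plus) and chrX:73243131-73243350 (Xlr4c, minus), from the RefSeq promoter table on GRCm38.p6.
Xlr4a: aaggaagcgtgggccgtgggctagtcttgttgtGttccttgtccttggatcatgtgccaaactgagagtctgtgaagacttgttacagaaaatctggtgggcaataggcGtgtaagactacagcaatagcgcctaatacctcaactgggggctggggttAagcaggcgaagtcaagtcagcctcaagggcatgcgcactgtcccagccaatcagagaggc
Xlr4b: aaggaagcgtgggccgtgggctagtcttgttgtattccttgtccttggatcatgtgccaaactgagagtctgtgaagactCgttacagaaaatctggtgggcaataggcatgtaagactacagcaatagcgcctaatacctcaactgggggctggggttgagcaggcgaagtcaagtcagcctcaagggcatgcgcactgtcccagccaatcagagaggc
Xlr4c: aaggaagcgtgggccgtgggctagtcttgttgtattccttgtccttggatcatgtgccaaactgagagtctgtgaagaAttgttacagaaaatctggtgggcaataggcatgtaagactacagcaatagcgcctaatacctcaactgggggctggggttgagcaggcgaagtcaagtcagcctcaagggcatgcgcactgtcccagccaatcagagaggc
Xlr4a differed from Xlr4b and from Xlr4c at 4 of 220 bases (98.2% identity), and Xlr4b differed from Xlr4c at 2 (99.1%). The reason to sum the copies lies at the other end, where the 3-prime chemistry reads the transcripts. Of all 90-base windows in the last 500 bases of the annotated transcripts, 48.1% for Xlr4a, 65.1% for Xlr4b and 28.6% for Xlr4c also occurred in another gene, namely another Xlr4 copy, the pseudogenes Xlr4d-ps and Xlr4e-ps or, for Xlr4a and Xlr4c, Xlr3 genes. None of the Rhox members had such a window (0%). The split of reads among the Xlr4 copies is therefore uncertain, and their sum is the firmer value, although it may also hold reads from those relatives.

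The promoters of Rhox13 and Rhox5 are shown because they were the members with a match to the GR monomer motif AGAACA, whose reverse complement TGTTCT stands in capitals in each. They span chrX:38120590-38120839 (Rhox13, plus strand) and chrX:37754358-37754607 (Rhox5, plus strand) on GRCm38.p6. Neither window adjoins the annotated gene start given above, since both RefSeq starts lie upstream of it. The Rhox5 window ends at base 37754607, far from the annotated start at 37804842. The Rhox13 window ends at 38120839, nearer to the annotated start at 38121219.
Rhox13: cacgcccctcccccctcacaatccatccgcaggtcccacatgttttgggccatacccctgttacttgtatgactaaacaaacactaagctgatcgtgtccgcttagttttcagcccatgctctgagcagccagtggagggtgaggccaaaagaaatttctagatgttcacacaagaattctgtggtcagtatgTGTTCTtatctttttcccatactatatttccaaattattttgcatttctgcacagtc
Rhox5: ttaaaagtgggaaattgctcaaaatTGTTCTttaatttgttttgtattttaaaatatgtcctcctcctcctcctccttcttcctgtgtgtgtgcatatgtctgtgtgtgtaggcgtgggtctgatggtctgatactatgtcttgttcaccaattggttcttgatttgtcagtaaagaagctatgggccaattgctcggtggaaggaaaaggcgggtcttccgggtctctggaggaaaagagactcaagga
The match began 57 bases before the RefSeq start in Rhox13 and 225 bases before the RefSeq start in Rhox5. On both strands, 16.2% of 27025 RefSeq promoters of 250 bases held this motif. The palindromic GR element built from it was found in 1 of those promoters and in none of the 6 members with a promoter entry (Rhox5, Rhox10, Rhox13, Xlr4a, Xlr4b and Xlr4c). The same 6 members held neither the E-box CACGTG (6.05% of all promoters) nor the STRA8 motif CNCCTCAG (6.39%). The CCAAT box (34.5%) occurred 3 times in Rhox5 and once in each Xlr4 copy. These matches are descriptions of the letters and not of binding.

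After the limits on cells used in the study, 15502 KO and 9045 WT cells remained, of which 10199 and 6791 were named germ-like from their markers, and 27 barcodes occurred in both libraries. The median depth per cell was 15685 UMIs in WT against 10194.5 in KO. Nr3c1 itself stood at 11.6 CPM (counts per 1000000 UMIs of the class) in KO and 71.9 CPM in WT germ-like cells, a log2 ratio of −2.63, although the reads of this chemistry come from the end of the transcript and not from the deleted exon. Germ-like cells were divided without any Rhox or Xlr gene into premeiotic-like (803 KO, 418 WT), meiotic entry-like (1406 KO, 424 WT), recombination-like (4721 KO, 3410 WT) and advanced-like cells (3155 KO, 2469 WT), and a mixed sub-cluster of 184 cells stayed unnamed. All 8 premeiotic and all 5 detected meiotic entry markers were at least 1.25-fold above the rest in their stage, against 5 of 8 for recombination and 6 of 9 for the advanced stage. Within recombination-like cells, the separate sub-clusters passed this for 4, 1 and 2 of 8 markers, so that stage rests on their sum. Some markers went against the stage names when stages were set side by side. Premeiotic-like cells also held the most Stra8, at 1386 CPM in KO and 1367 CPM in WT. Over both libraries they held more Rec8 than meiotic entry-like cells (497 against 274 CPM). Their mean log2 score for the meiotic entry markers was also higher (1.69 against 1.12). Pou5f1 was higher in advanced-like (61.3 CPM in KO, 60.8 CPM in WT) than in premeiotic-like cells (51.3 and 53.1 CPM).

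Rhox5, Rhox6 and Rhox9 were genes of the earliest stage and fell in level with each step into prophase up to the recombination-like cells. Rhox5 stood at 355 CPM (345 to 366) in KO and 333 CPM (321 to 345) in WT premeiotic-like cells, at 73.5 and 59.1 CPM in meiotic entry-like cells, and at 5.70 and 4.48 CPM in recombination-like cells. In the advanced-like cells it stood at 5.44 CPM in KO and 13.7 CPM in WT. The fall from the premeiotic-like to the meiotic entry-like level was 4.83-fold (4.56 to 5.12) in KO and 5.63-fold (5.13 to 6.19) in WT. This made Rhox5 the most concentrated of the well-counted members, with 66.8% of its KO and 68.1% of its WT germ-like UMIs in the premeiotic-like stage, which held 7.87% and 6.16% of the cells.

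Rhox6 stood at 203 CPM in KO and 249 CPM in WT premeiotic-like cells, 118 and 116 CPM at meiotic entry, 40.6 and 34.2 CPM in recombination-like cells and 24.3 and 28.7 CPM in advanced-like cells. Rhox9 followed the same order, from 304 and 327 CPM through 127 and 137 CPM and 39.8 and 35.5 CPM to 30.1 and 32.6 CPM. Summed, Rhox6 and Rhox9 were 9.30-fold (8.80 to 9.83) higher in premeiotic-like than in advanced-like cells in KO and 9.40-fold (8.97 to 9.86) higher in WT, which is 3.23 on the log2 scale. With the stages set as 4 equal groups of cells along a score of late minus early markers, the WT value was 1.60 on that scale. The late end of that score was not the advanced-like stage, as given below. By the clustered stages Rhox6 and Rhox9 were graded less steeply than Rhox5. They kept a measurable level in late cells, above the level of granulosa-like cells (9.30 and 4.18 CPM for Rhox6, 10.2 and 5.45 CPM for Rhox9 in KO and WT).

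Rhox10 was near the limit of detection, with 54 UMIs in KO and 43 in WT over all germ-like cells. Its highest level was also premeiotic, at 2.52 CPM (1.71 to 3.58) in KO and 1.70 CPM (0.95 to 2.81) in WT, and it was at or under 0.47 CPM in every later stage. The intervals of the libraries overlapped in each stage. In theca-like cells it had 0 UMIs in both libraries, which allows up to 0.19 CPM in KO and 0.30 CPM in WT.

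By the clustered stages Rhox13 and the Xlr4 copies peaked later, at meiotic entry. Rhox13 rose from 108 CPM (102.6 to 114.3) to 200 CPM (194 to 206) between premeiotic-like and meiotic entry-like cells of KO, and from 50.6 CPM (46.0 to 55.6) to 104 CPM (97.7 to 111) in WT. It then stood at 137 and 93.0 CPM in recombination-like cells and at 74.6 and 56.5 CPM in advanced-like cells. The Xlr4 sum stood at 728 CPM in KO and 501 CPM in WT premeiotic-like cells, at 1087 and 711 CPM at meiotic entry, at 552 and 358 CPM in recombination-like cells and at 250 and 241 CPM in advanced-like cells. Neither gene group was confined to its peak, since recombination-like cells, the most numerous stage, held 49.8% (KO) and 58.8% (WT) of Rhox13 UMIs and 44.3% and 49.9% of the Xlr4 UMIs. The peak depended on how cells were staged. Along 10 equal steps of the score of late minus early markers, Rhox13 was highest in step 10 in KO (155 CPM) and step 9 in WT (97.4 CPM), and the Xlr4 sum in step 7 (632 CPM) and step 9 (398 CPM). Both were lowest in step 1, where Rhox5, Rhox6, Rhox9 and Stra8 were highest in both libraries. Pou5f1, an early marker of the score, stood at 5.40 CPM in KO and 11.0 CPM in WT in step 10. In advanced-like cells it stood at 61.3 and 60.8 CPM. Figla, a late marker of the score, stood at 158 and 261 CPM in the advanced-like sub-clusters over both libraries. In the recombination-like sub-clusters it stood at 243, 144 and 263 CPM. The late end of the score was therefore not the advanced-like stage.

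**Figure D1:**
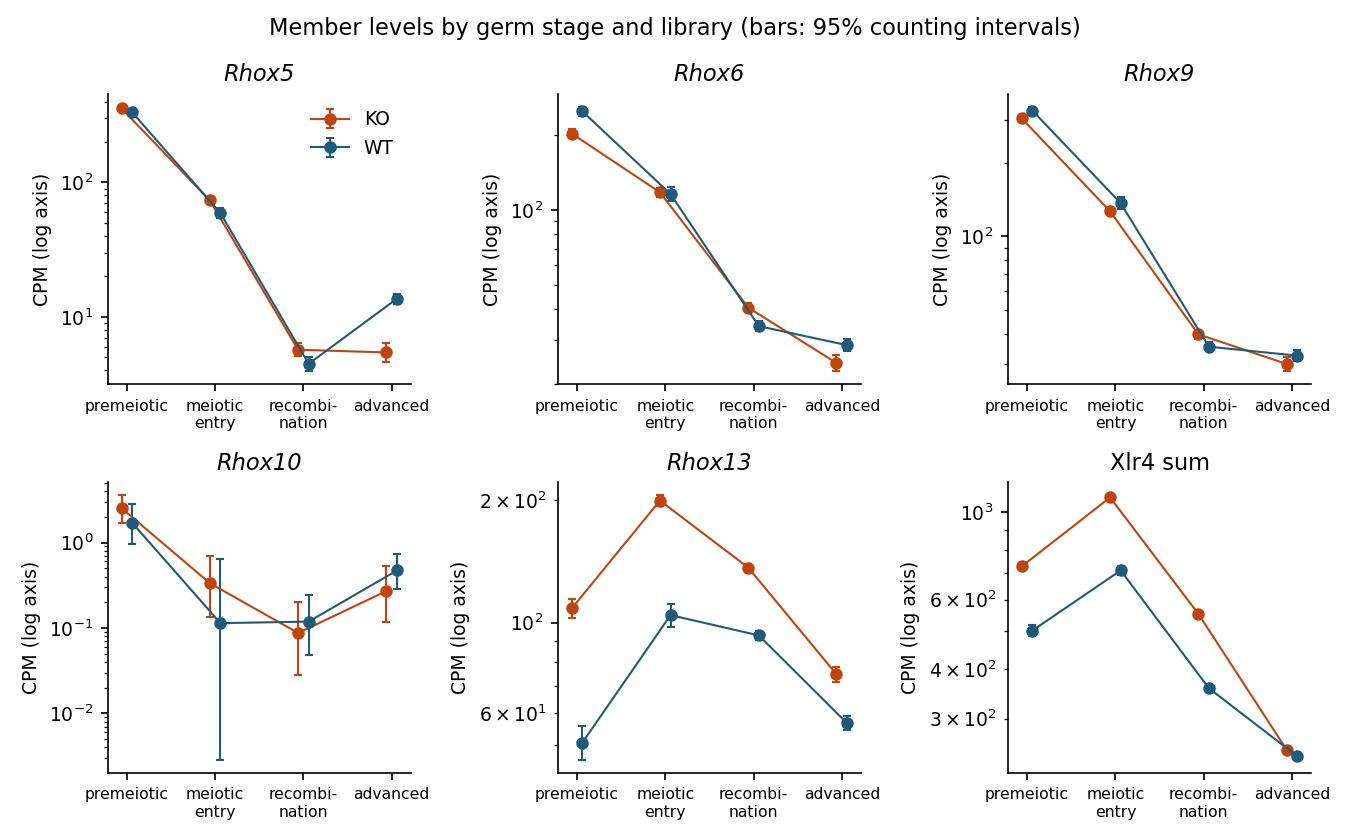
Level of each Rhox member and of the Xlr4 sum in CPM (log axis) across the 4 germ stages of the KO and WT libraries, with 95% counting intervals. Rhox5, Rhox6 and Rhox9 are highest in premeiotic-like cells in both libraries, Rhox13 and the Xlr4 sum at meiotic entry, and the KO points of Rhox13 lie above WT in all 4 stages.

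**Figure D2:**
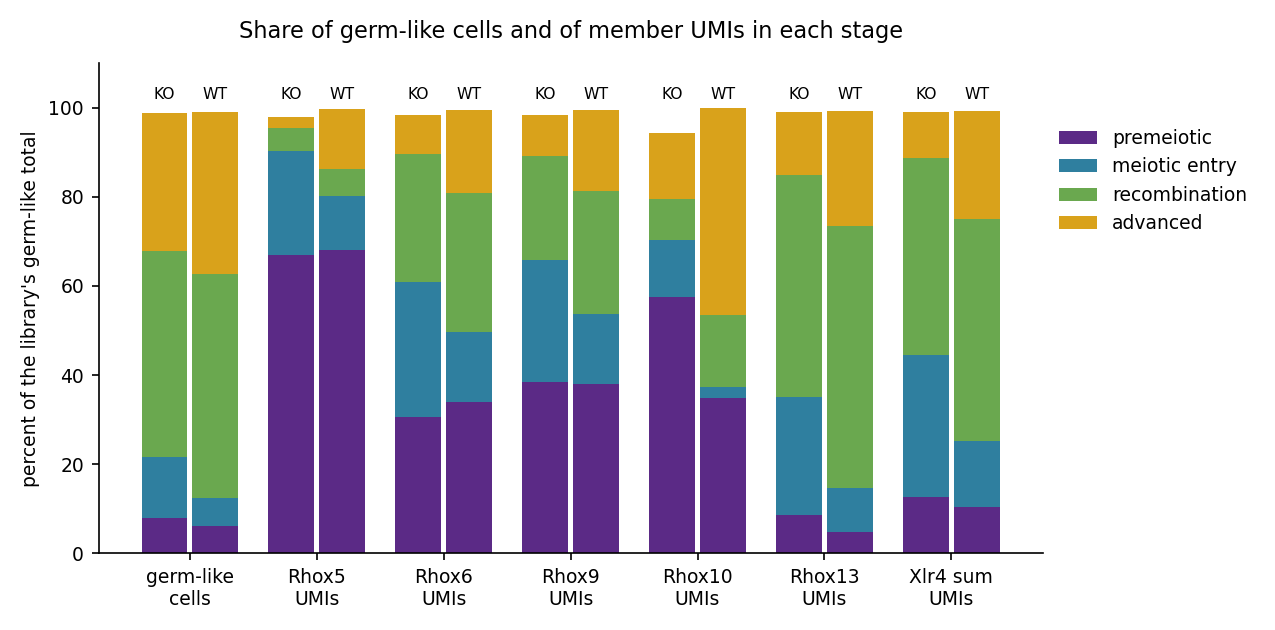
Share of germ-like cells and of each member's germ-like UMIs in the 4 stages, per library, in percent; the small remainder is the mixed sub-cluster. Rhox5 UMIs lie mostly in premeiotic-like cells (66.8% in KO, 68.1% in WT), while recombination-like cells hold 49.8% and 58.8% of Rhox13 UMIs and 44.3% and 49.9% of Xlr4 UMIs.

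All Xlr4 copies shared the profile of their sum. In WT meiotic entry-like cells Xlr4a stood at 250 CPM, Xlr4b at 251 CPM and Xlr4c at 210 CPM, and in KO they stood at 319, 460 and 308 CPM. Xlr4b made up 42.3% (41.7 to 43.0) of the sum in KO and 35.3% (34.1 to 36.5) in WT at meiotic entry, and Xlr4a 29.3% and 35.2%. In recombination-like cells the split hardly differed, with Xlr4b at 36.1% and 37.0%. Because the copies share so much of their 3-prime sequence, a shift among them may be a shift in how reads were assigned, which was not tested.

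Pooled over germ-like cells, Rhox13 and the Xlr4 copies were the members with the highest KO over WT ratios, which is why they were chosen. Rhox13 stood at 129 CPM in KO and 77.3 CPM in WT, a log2 ratio of 0.74 (0.70 to 0.78). The Xlr4 sum stood at 587 CPM and 351 CPM, also 0.74 (0.72 to 0.76), with Xlr4a at 0.70, Xlr4b at 0.82 and Xlr4c at 0.69. Rhox5 had 53.7 CPM in KO and 35.7 CPM in WT (0.59), Rhox6 66.9 and 53.7 CPM (0.31), and Rhox9 79.8 and 63.1 CPM (0.34). Of the 7 members with at least 100 UMIs over both libraries, 5 were higher in KO by at least 0.5 on the log2 scale, against 2.51% of 13795 genes counted in the same way, and 0 were lower. The median log2 ratio of those genes was −0.05.

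The libraries differed in their makeup by stage, and this bore on the pooled ratios. Meiotic entry-like cells were 13.8% (13.1 to 14.5) of KO and 6.24% (5.68 to 6.85) of WT germ-like cells, and advanced-like cells were 30.9% and 36.4%. With the level of each stage weighted by the WT share of cells, the log2 ratio of Rhox5 became −0.00 (−0.06 to 0.05), that of Rhox6 −0.03 (−0.08 to 0.02) and that of Rhox9 −0.02 (−0.06 to 0.03). Stra8, whose pooled ratio was 0.61, became −0.08. Rhox13 kept 0.58 (0.54 to 0.62) and the Xlr4 sum 0.49 (0.47 to 0.51). For the early Rhox genes this rested on the staging. With the 4 equal groups along the score, Rhox5 was at 0.52 and the Xlr4 sum at 0.75 at the WT shares. Along the 10 steps of the score, Rhox5 was higher in KO in 10 of 10, with 7 intervals above 0, and Rhox6 and Rhox9 each in 9 of 10, with 9 intervals above 0 and 1 below it, in step 1. Rhox13 and the Xlr4 sum were higher in KO in 10 of 10, with all intervals above 0. Stra8 was also higher in KO in 10 of 10, so the steps did not hold cells of equal Stra8 level in the libraries. Pou5f1, an early marker of the score itself, went the other way. It was higher in KO in 0 of 10 steps, with 8 intervals below 0.

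Within stages, Rhox13 was higher in KO in each of the 4. Its log2 ratio was 1.10 (0.94 to 1.26) in premeiotic-like, 0.94 (0.83 to 1.04) in meiotic entry-like, 0.55 (0.50 to 0.60) in recombination-like and 0.40 (0.31 to 0.48) in advanced-like cells. The Xlr4 sum had 0.54 (0.49 to 0.59), 0.61 (0.57 to 0.65), 0.63 (0.60 to 0.65) and 0.05 (0.01 to 0.10) in the same order, so its libraries nearly met in the advanced-like cells. Rhox6 and Rhox9 together had −0.19 (−0.24 to −0.13), −0.05 (−0.12 to 0.03), 0.21 (0.15 to 0.27) and −0.17 (−0.26 to −0.08). The members past 0.5 were Rhox13, Xlr4b and Xlr4c in premeiotic-like cells (2.00% of all genes counted there), the same genes in meiotic entry-like cells (3.97%), and Rhox13 with all Xlr4 copies in recombination-like cells (2.62%). In advanced-like cells 0 members were higher by that size (1.62% of all genes) and 1, Rhox5, was lower (5.95%), with a log2 ratio of −1.33 (−1.59 to −1.07).

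The ratios of the early Rhox genes also depended on which cells were kept, since the limits of the study differ between the libraries. The upper limit was 40000 UMIs and 6500 genes for WT but 30000 UMIs and 5500 genes for KO, and 511 WT germ-like cells (median 32648 UMIs) lay above the KO limits. Rhox5 stood at 96.0 CPM (91.4 to 100.8) in these cells and at 26.0 CPM (25.04 to 27.01) in the other 6280. The lower limits were 5500 UMIs and 1500 genes for WT but 3000 UMIs and 1200 genes for KO, and 871 KO germ-like cells (median 4642 UMIs) lay below the WT limits, with Rhox5 at 10.4 CPM (7.49 to 14.2) against 55.1 CPM in the other 9328. When both libraries were held to the same limits, the pooled log2 ratio of Rhox5 became 1.08 (1.02 to 1.15), that of Rhox6 0.51 (0.46 to 0.56) and that of Rhox9 0.51 (0.46 to 0.56). All 7 countable members were then past 0.5, against 3.59% of 13576 genes. By stage Rhox5 had 0.41 (0.33 to 0.49), 0.47 (0.32 to 0.63), 0.39 (0.15 to 0.64) and −0.03 (−0.36 to 0.30), so the value of −1.33 in advanced-like cells was gone. The recombination-like ratio belongs to a level close to that of somatic cells. At the WT stage shares the Rhox5 ratio was 0.39 with the same limits in both libraries.

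Rhox13 and the Xlr4 sum moved less. With the same limits, Rhox13 had 0.73 (0.69 to 0.76) pooled and 1.02, 0.89, 0.56 and 0.51 by stage. The Xlr4 sum had 0.78 (0.76 to 0.80) pooled and 0.49, 0.60, 0.65 and 0.29 by stage, and 0.56 at the WT stage shares. The direction of Rhox6 and Rhox9 within a stage depended on these limits, and it turned in advanced-like cells. There Rhox6 went from −0.24 (−0.37 to −0.10) under the limits of the study to 0.26 (0.10 to 0.42) under the same limits, and Rhox9 from −0.11 (−0.24 to 0.01) to 0.27 (0.13 to 0.42). In premeiotic-like cells Rhox6 went from −0.30 to −0.07 (−0.17 to 0.02) and Rhox9 from −0.11 to 0.07 (−0.01 to 0.15).

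**Figure D3:**
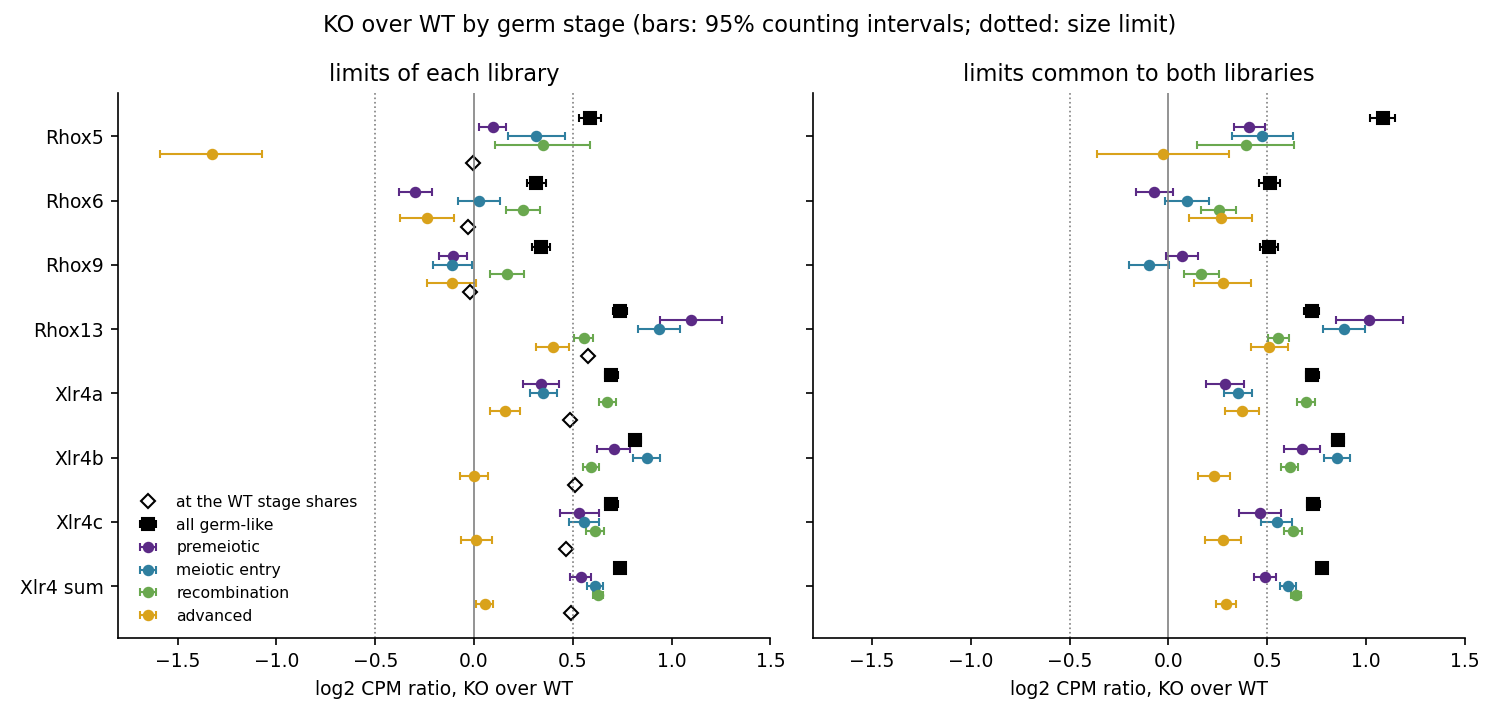
Log2 CPM ratio of KO over WT for each member with at least 100 UMIs and for the Xlr4 sum, over all germ-like cells and per stage, with 95% counting intervals and, on the left, the ratio at the WT stage shares. Rhox13 lies above 0 in all 4 stages under both sets of limits, while Rhox5 in advanced-like cells goes from −1.33 under the limits of each library (left) to −0.03 under the common limits (right).

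The advanced-like difference of Rhox5 was larger in one of the sub-clusters of that stage. Advanced-like cells comprised sub-cluster 1 (2766 KO and 2005 WT cells), with Rhox5 at 5.19 and 6.65 CPM, a log2 ratio of −0.36 (−0.68 to −0.04), and sub-cluster 5 (389 KO and 464 WT cells), with 8.76 and 31.6 CPM, a log2 ratio of −1.85 (−2.62 to −1.17). In sub-cluster 5 the median depth was 4706 UMIs in KO and 30488 UMIs in WT. There, 33 WT cells with at least 3 Rhox5 UMIs held 290 of the 377 Rhox5 UMIs (76.9%), and 0 KO cells reached 3. These 33 cells also carried Stra8 at 1364 CPM, against 84.8 CPM in the other WT cells of the sub-cluster, where Rhox5 stood at 8.12 CPM. The part of depth in this difference was not tested. The other members also differed between the sub-clusters. The Xlr4 sum had a log2 ratio of 0.20 (0.15 to 0.24) in sub-cluster 1 and −0.45 (−0.60 to −0.31) in sub-cluster 5. In the same order Rhox13 had 0.48 (0.39 to 0.57) and −0.04 (−0.33 to 0.23), Rhox6 0.11 and −1.43, and Rhox9 0.13 and −0.66. The advanced-like difference of Rhox13 was thus seen in sub-cluster 1 only.

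The difference of Rhox13 and the Xlr4 sum was spread over many cells and did not lie in a few cells with many UMIs. With every cell thinned to 3000 UMIs, Rhox13 was detected in 25.8% (22.8 to 29.0) of KO and 12.7% (9.64 to 16.3) of WT premeiotic-like cells and in 47.3% (44.7 to 49.9) and 25.2% (21.2 to 29.7) of meiotic entry-like cells. The shares were 31.7% and 22.2% in recombination-like cells and 20.7% and 14.9% in advanced-like cells. In granulosa-like cells, which are somatic, Rhox13 was found in 3.01% of KO and 1.49% of WT cells (median 8506 and 12650 UMIs before thinning), below every germ stage. Before thinning, Rhox13 was detected in 89.7% of KO and 65.1% of WT meiotic entry-like cells, although the WT cells were deeper (median 21274.5 against 14667.5 UMIs).

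At least 3 Xlr4 UMIs were found after thinning in 60.7% of KO and 34.2% of WT meiotic entry-like cells. Detection of any Xlr4 UMI was 94.0% and 83.3% there, 47.3% and 41.4% in advanced-like cells, and 10.9% and 5.42% in granulosa-like cells. Rhox5 was detected in 50.6% of KO and 44.7% of WT premeiotic-like cells after thinning and in 0.97% and 0.96% of granulosa-like cells.

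**Figure D4:**
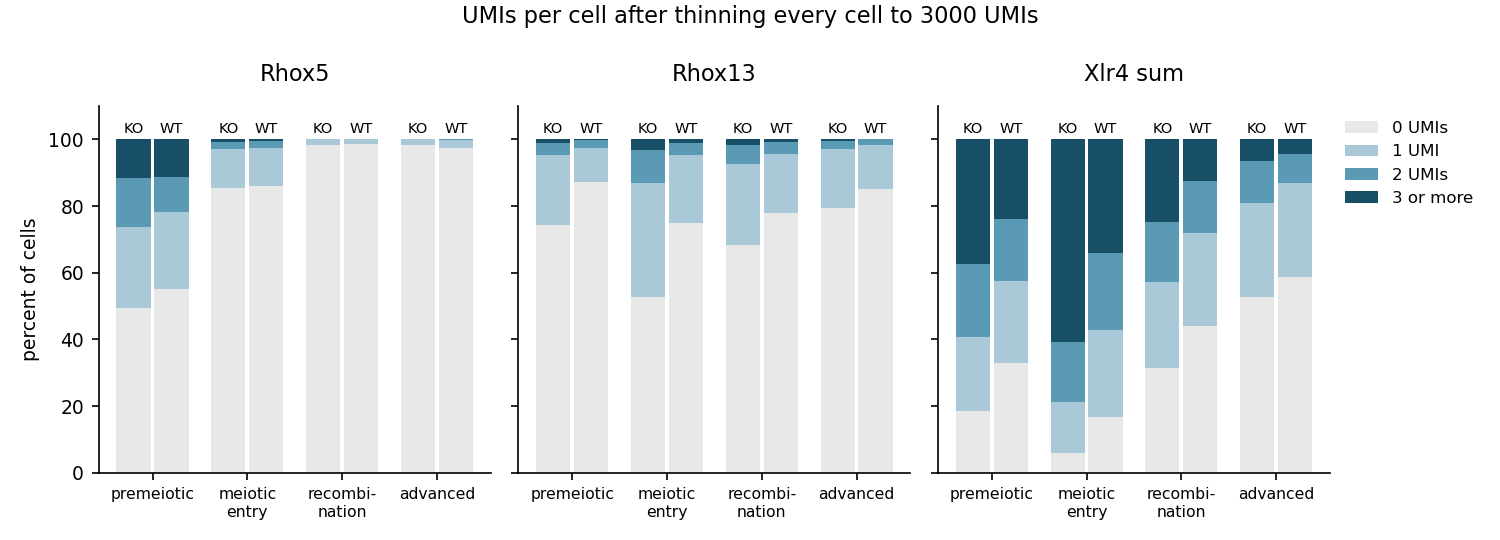
Percent of cells with 0, 1, 2 and 3 or more UMIs of Rhox5, Rhox13 and the Xlr4 sum per germ stage and library, with every cell thinned to 3000 UMIs. At meiotic entry 60.7% of KO and 34.2% of WT cells hold 3 or more Xlr4 UMIs, and Rhox13 is detected in 47.3% and 25.2%.

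Members of the early group tended to occur in the same premeiotic-like cells, but this was not particular to them. In thinned WT premeiotic-like cells, Rhox5 and Rhox6 were both found in 25.8% of cells, 1.44 times the product of their separate shares, Rhox5 and Rhox9 in 26.8% (1.31 times) and Rhox6 and Rhox9 in 26.1% (1.42 times). In KO these ratios were 1.18, 1.23 and 1.12. Rhox5 and Rhox13 were found together in 3.83% of WT cells (2.20 to 6.14), against a product of 5.67% (0.67 times), and in 13.3% of KO cells (1.02 times). For Rhox6 and Rhox13 the ratio was 0.89 in WT and 1.12 in KO premeiotic-like cells. In recombination-like cells it was 1.38 in WT and 1.21 in KO, against 1.13 and 0.97 for Rhox6 and Rhox9. The Xlr4 copies were found together 1.27 to 1.35 times as often as their product in recombination-like cells of both libraries and 0.99 to 1.13 times at meiotic entry, where each copy was found in 57.6% to 71.1% of KO and 45.8% to 48.6% of WT cells. Of 5 units, the Rhox members without Rhox10 and the Xlr4 sum, a premeiotic-like cell showed a mean of 2.498 in KO and 2.10 in WT, and an advanced-like cell 0.85 and 0.72. These sparse shares are descriptions.

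Somatic cells held Rhox13 and the Xlr4 sum at about the share of the germ-like level at which they held broadly expressed germ cell genes, and the early Rhox genes at a lower share in KO. In granulosa-like cells the members and 8 broadly expressed germ cell genes (Ddx4, Dazl, Mael, Sycp1, Sycp3, Smc1b, Hormad1 and Dmc1) were compared as percent of their germ-like CPM. The 8 genes stood at 15.3% to 19.3% in KO and 10.5% to 11.8% in WT. Rhox13 stood at 17.1% (15.6 to 18.9) in KO and 11.6% (9.59 to 14) in WT, the Xlr4 sum at 15.9% (15.2 to 16.7) and 11.1% (10.1 to 12.1), and Rhox5 at 11.1% (9.14 to 13.3) and 12.4% (9.33 to 16.1). Rhox6 (13.9% and 7.78%) and Rhox9 (12.8% and 8.64%) lay below the range of the 8 genes in both libraries, as did Stra8 (11.2% and 7.29%) and Dppa5a (13.8% and 8.44%) from the list of 6 early germ cell genes. Of the others on that list, Sox2 (6.75% and 9.54%, on 5 and 3 UMIs) was also below the range in both libraries. Pou5f1 (16.4% and 14.5%), Utf1 (35.9% and 17.5%, on 40 and 12 UMIs) and Nanog (1030% and 106%, on 5 and 1 UMIs) lay in or above it. The median of that list was 15.13% in KO and 12.02% in WT, and it rests in part on these low counts. In theca-like cells the 8 genes stood at 21.9% to 25% in KO and 14.4% to 16.8% in WT. Rhox13 stood there at 24.5% and 18.9% and the Xlr4 sum at 21.9% and 17.6%. Rhox5, Rhox6 and Rhox9 stood at 15.8%, 17.7% and 18.7% in KO, and at 20.2%, 13.6% and 15.4% in WT. In epithelia-like cells the Xlr4 sum stood at 12.4% and 11.5%, against 10.8% to 13.6% and 9.06% to 11.4% for the 8 genes. Rhox5, Rhox6 and Rhox9 stood there at 8.26%, 8.32% and 9.33% in KO and at 10.7%, 12.4% and 7.98% in WT. The intervals of both Rhox13 and the Xlr4 sum overlapped the range of the 8 genes in each of these 3 classes and both libraries.

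**Figure D5:**
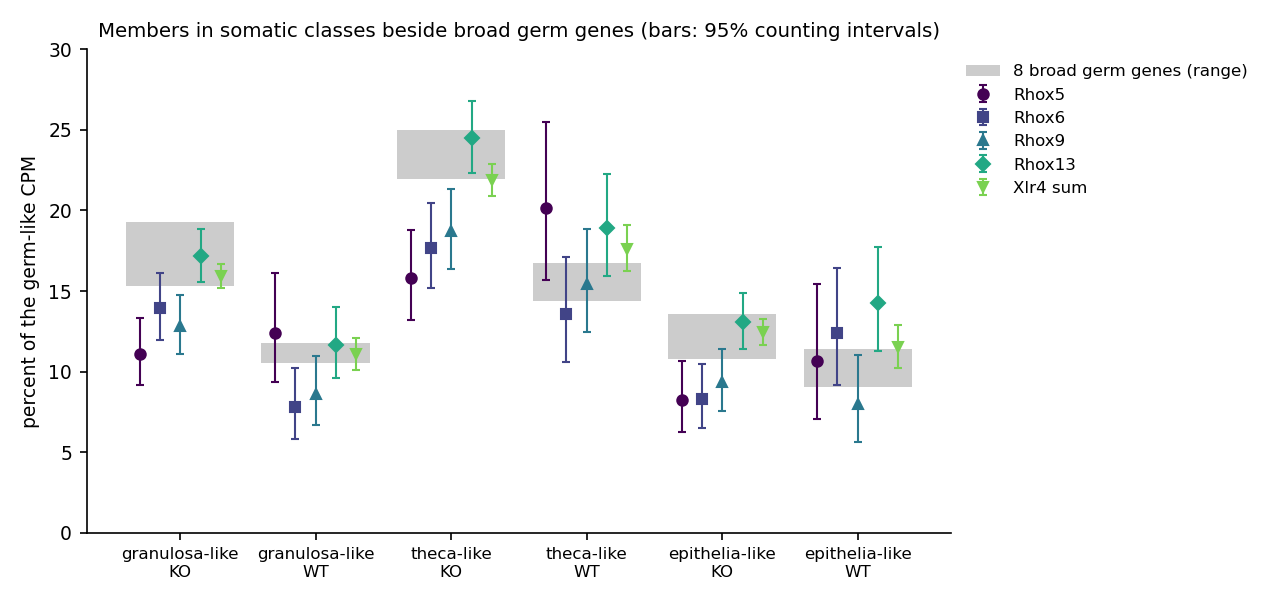
Level of the members in 3 somatic classes in percent of their germ-like CPM, per library, with 95% counting intervals; grey bars give the range of 8 broadly expressed germ cell genes. Rhox13 and the Xlr4 sum lie in or near the grey range in every class and library, and Rhox5, Rhox6 and Rhox9 lie below it in KO.

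In somatic classes the members were mostly higher in KO, with Rhox6 in epithelia-like cells at −0.26 (−0.80 to 0.29) as the exception among the countable members. Of 7 countable members, 6 were higher in KO by at least 0.5 in granulosa-like cells (3.58% of all genes counted) and 6 in theca-like cells (4.33%), and 5 of 6 in epithelia-like cells (2.41%). The Xlr4 sum had a log2 ratio of 1.26 (1.12 to 1.41) in granulosa-like cells, from 93.4 and 38.9 CPM. Of the germ cell genes set beside the members, Stra8 was at 1.23 in the granulosa-like, 0.89 in the theca-like and 0.61 in the epithelia-like class. In this order, Sycp3 was at 0.85, 0.75 and 0.60, Ddx4 at 0.57, 0.75 and 0.39 and Dazl at 0.54, 0.36 and 0.19. Pou5f1 was at −0.22 (−0.65 to 0.21), −0.16 (−0.60 to 0.28) and 0.61 (−0.07 to 1.33). How much of a somatic ratio is germ cell RNA was not tested.

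The rest of both families was described by counts. Of 29 other Rhox genes, 2 had 0 germ-like UMIs, 16 had fewer than 100 and 11 had at least 100. Of these 11, 5 were higher in KO by at least 0.5 and 1 was lower, with a median log2 ratio of 0.45 (range −0.56 to 1.21). They included Rhox1 at 131 CPM in KO and 96.1 CPM in WT (0.45), Rhox7b at 50.9 and 31.1 CPM (0.71), Rhox7a at 26.9 and 15.4 CPM (0.81), Rhox11 at 2.29 and 1.28 CPM (0.84), Rhox2b at 2.86 and 1.24 CPM (1.21) and Rhox2h at 3.30 and 4.86 CPM (−0.56). The level peaked in premeiotic-like cells for 8 of the 11, at meiotic entry for 2 (Rhox7b and Rhox11) and in advanced-like cells for 1 (Rhox3h). The Rhox2, Rhox3 and Rhox4 genes are multicopy, so their separate values are uncertain.

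All 7 other Xlr genes had at least 100 UMIs, 4 were higher in KO by at least 0.5 and 0 were lower, with a median of 0.62 (−0.07 to 0.85). Xlr, the founding gene, stood at 167 CPM in KO and 127 CPM in WT (0.39), Xlr3b at 23.1 and 14.9 CPM (0.63), Xlr3a at 13.1 and 8.53 CPM (0.62) and Xlr5b at 18.9 and 19.9 CPM (−0.07). Of these 7, 6 peaked in premeiotic-like cells and 1, Xlr, at meiotic entry, as the Xlr4 copies did. Xlr3 and Xlr5 genes also have near copies, and the same doubt applies.

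Outside the Rhox and Xlr families, most genes next to the clusters did not share the ratio of the members. All Rhox and Xlr genes were left out of the counts of neighbours. Of 8 protein-coding genes within 500 kb of the Rhox members, 4 had at least 100 UMIs, with a median log2 ratio of −0.31 (−0.36 to −0.16) and 0 past 0.5 in either direction. Near the Xlr4 copies, 14 of 24 had at least 100 UMIs, with a median of 0.02 (−0.36 to 0.83), and 2 were past 0.5, Bgn and Gm18336. Over the whole X chromosome, with only the 8 members left out, 47 of 520 counted genes (9.04%) were higher in KO germ-like cells by at least 0.5. The other Rhox and Xlr genes were not left out of this count. Of those with at least 100 UMIs, 5 of 11 Rhox and 4 of 7 Xlr genes were higher by that size. Among autosomal genes the share was 293 of 13219 (2.22%). In advanced-like cells the shares were 1.64% and 1.61%.

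The genes whose germ profile was most like each member were found over 14 points, the 7 named sub-clusters in each library, as Pearson's r of log2(CPM + 1). These points share libraries and depth, and r is given as a description. Rec8, a meiotic cohesin subunit, was nearest to Rhox5 (r = 0.99), and Prdx2 was also among the nearest (0.98). Hint2, Nudt19 and Pafah1b3 were nearest to Rhox6, Taldo1, Grn and Snrpb to Rhox9, and Ror2, Kank2 and Msx2 to Rhox10. Rhox13 was nearest to Atp5d (0.94), Llph and Ccdc124, and the Xlr4 sum to Snx12 (0.98), Rhd and Cox5a. Among members, Rhox6 and Rhox9 had r = 0.98, Rhox13 and the Xlr4 sum 0.80, and Rhox5 and Rhox13 −0.07.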

How the data were processed

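The authors made 1 droplet library per genotype and deposited raw UMI counts, which are whole numbers for each gene in each cell barcode. The deposited files name Cell Ranger 3.0.2 in their headers. Per the labels, the build was mm10 and Seurat 3.2.3 was used. The annotation of the counts and the handling of reads that match several genes are not given in the sources used here. Annotation came from GENCODE M21 on GRCm38 (27645 of 27998 gene IDs matched, 98.7%), and promoters from the RefSeq table. Rhox6 and Rhox9 had no promoter entry.

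The members and the gene lists were chosen with earlier results of these data known. Cells were kept at 1500 to 6500 genes and 5500 to 40000 UMIs (WT) or 1200 to 5500 genes and 3000 to 30000 UMIs (KO), with under 10% mitochondrial UMIs. The common limits were 1500 to 5500 genes and 5500 to 30000 UMIs. The KO library held 17829 barcodes with 186117981 UMIs and the WT library 11430 with 168483330. Doublets were kept, and their removal by Scrublet (expected rate 8%) was an alternative. Counts were clustered in scanpy 1.11.5 (2000 variable genes without Rhox and Xlr genes for the germ stages, 30 components, 20 neighbours, Leiden resolution 0.5). Clusters were named from markers, and these rebuilt names may differ from those of the study.

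UMIs were summed per class and library and given as CPM. Ratios carry exact conditional binomial intervals, levels Poisson and shares Clopper-Pearson intervals at 95%. Genes with at least 100 UMIs over both sums and a log2 ratio of at least 0.5 were counted. The 3 non-member genes nearest in profile (1 of them is not reported here) and the family genes with at least 100 UMIs are named by rule, and others named in the text were chosen after their values were seen. The counting steps were tested on simulated data. An upper limit from 0 UMIs is 3 counts.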

Additional observations from a re-analysis of the deposited data

Results flagged for a closer look

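The KO over WT ratio of Rhox5 differed in sign between germ stages. Its log2 value was 0.095 (0.027 to 0.163) in premeiotic-like, 0.31 (0.17 to 0.46) in meiotic entry-like and 0.35 (0.11 to 0.59) in recombination-like cells, but −1.33 (−1.59 to −1.07) in advanced-like cells. The recombination-like level was close to that of granulosa-like cells, where the log2 ratio was 0.43 (−0.04 to 0.91). With 1 library per genotype the difference between stages was not tested, and under common limits on cells the advanced-like value was −0.03.

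Barcodes above the upper limits on UMIs or genes were in no comparison. Rhox5 stood at 100.05 CPM (93.24 to 107.22) in 249 such KO barcodes (median 31568 UMIs) and at 69.3 CPM (63.8 to 75.1) in 187 WT barcodes (median 42904 UMIs), against 53.7 and 35.7 CPM in germ-like cells. The makeup of these barcodes by cell class was not tested.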

How the results depend on the processing

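The pooled log2 ratio of the Xlr4 sum, 0.74 as reported, ranged from 0.69 to 0.78 and that of Rhox13, also 0.74, from 0.70 to 0.78, and no value changed sign among those called. Of 63 recomputed values, 34 were classed as moved by less than counting error and 29 by more. Counting error does not apply to the number of members past 0.5, which was 5 as reported. That number was 7 with common limits and 4 with thinned cells, and both are among the 34. With common limits the Xlr4 sum was 0.78 pooled and 0.56 at the WT stage shares, Rhox6 plus Rhox9 (premeiotic-like over advanced-like, WT, 3.23 as reported) was 3.48, Rhox5 in granulosa-like cells of WT (12.4% as reported) was 18.0%, and Rhox5 at the WT stage shares (−0.00 as reported) was 0.39. With thinned cells the Xlr4 sum was 0.71 pooled and 0.54 at the WT stage shares. With mitochondrial, ribosomal protein and haemoglobin genes out of the scaling it was 0.71 and 0.47, and Rhox6 plus Rhox9 was 3.15. With size factors it was 0.78 and 0.51, and Rhox13 was 0.78. With a mean over cells it was 0.69 and 0.52, Rhox13 was 0.70, the granulosa-like Rhox5 level 16.3% and Rhox5 at the WT stage shares 0.10. With stages as 4 equal groups of cells along a score, the Xlr4 sum was 0.75 and Rhox5 0.52 at the WT shares, and Rhox6 plus Rhox9 was 1.60; Stra8 differed between the libraries in 10 of 10 equal steps of that score. With cells holding markers of another class left out, the pooled Xlr4 sum was 0.72, Rhox13 0.70 and Rhox5 at the WT stage shares 0.14. With a size limit of 1 in place of 0.5, 0 members were past it in place of 5.

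Chosen after seeing the data, matching 7 sub-clusters in place of 4 stages gave 0.45 for the Xlr4 sum. Leaving out sub-cluster 5 gave 0.54 for the Xlr4 sum and 0.12 for Rhox5 at the WT stage shares, and 3.51 for Rhox6 plus Rhox9. Except where the construction shows it, the cause of these moves was not tested. Depth limits Rhox10, with under 100 UMIs. No paired analysis was possible because each group holds 1 library.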
